A study of Homo sapiens with 12 samples.

Results

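The 47 genes described here are the enzymes, transporters and receptors by which liver cells handle drugs, hormones and bile acids. They were listed by gene name, with earlier results of these data known. They comprise 19 cytochromes P450, 7 dehydrogenases and carboxylesterases, 8 conjugating enzymes, 8 transporters, 4 ligand-activated receptors and the P450 reductase POR. In the arrays, 43 of the 47 genes had a probe whose RefSeq transcript carried the gene's symbol, out of 20499 genes with a named probe in the series. No values were analysed here for CYP2A6, POR, UGT1A1 and SULT1A1. The 43 genes were read by 60 probes, and 15 genes had several probes.

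Drug metabolism runs in phases. Cytochromes P450, esterases and dehydrogenases oxidise or cleave a compound, transferases then attach a glucuronate, sulphate or methyl group, and membrane carriers bring compounds in from blood or send conjugates out to bile. The receptors AHR, NR1I2 (PXR), NR1I3 (CAR) and NR1H4 (FXR) switch on many of these genes when a ligand binds them. In the adult liver most of these genes are strongly expressed in hepatocytes, and cultured hepatoma lines are known to keep them to differing degrees.

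The arrays compared HA22T with PLC5, both established from human hepatocellular carcinoma. Each line was transfected with 10 nM of a non-targeting siRNA (siControl) or of a pool of siRNAs against GALNT1 (siGALNT1), an enzyme that starts mucin-type O-glycosylation, and total RNA was taken after 48 h. The 4 groups held 3 one-colour Agilent arrays each, 12 in all. The labels do not say whether the 3 arrays of a group came from separate cultures, so p-values measure the spread between these arrays, which may be technical. All groups were grown in the same serum-containing medium and received the same transfection reagent. No drug or receptor ligand was named as a treatment.

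A level below is the log2 signal of a probe minus the 75th percentile of its array, so a level of 0 lies at that percentile. Levels of different probes are not set against each other as results, because probes differ in how brightly they bind. The exceptions are the summed level of the hepatocyte markers, which the brightest probes dominate, and the choice of the 5 strongest signals of each line. A difference is in log2 units, is given ± its SE, from 3 arrays a group where no missing value is named, and passed the test when its limma p, adjusted over all counted probes (Benjamini-Hochberg), was under 0.05. A comparison counted only probes that the scanner software called well above background in 3 or more of its 6 arrays, and the brightest probe stood for a gene. Spots well above background numbered 36679 to 48873 of 58717 on an array, 0 spots were saturated, and replicate arrays correlated at r = 0.969 to 0.989 over 22340 probes. The targeted transcript checked the labels: GALNT1 averaged 0.97 ± 0.30 (SD, n = 3) with siControl and -4.13 ± 1.26 with siGALNT1 in HA22T, and 0.62 ± 0.25 and -3.10 ± 1.04 in PLC5. Its groups did not overlap in either line. The differences were -5.10 ± 0.61 (adjusted p = 0.0709) in HA22T and -3.72 ± 0.61 (adjusted p = 1) in PLC5, so the brighter probe did not pass the adjustment over all probes, while a dimmer GALNT1 probe passed in HA22T at -4.75 ± 0.49 (adjusted p = 0.0305).

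Hepatocyte markers were used to check the liver origin of the lines. All 11 markers on the list (ALB, APOA1, APOA2, APOB, TTR, SERPINA1, TF, FGB, FGA, AHSG and HNF4A) were lower in HA22T than in PLC5, with siControl (median difference -5.69) and with siGALNT1 (median difference -5.71). On the log2 scale their summed level ran from 1.34 to 1.60 on the HA22T arrays with siControl and from 7.60 to 8.07 on the PLC5 arrays with siControl, and from 1.37 to 1.53 and 7.47 to 8.19 with siGALNT1. TTR was not well above background on any HA22T siGALNT1 array. The part of this difference in the results below was not tested. In RNA from whole cultures, fewer cells making a transcript and less transcript per cell cannot be told apart.

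Upstream sequences are shown for 4 members whose behaviour between the lines the results turn on: CYP1A1, the classical AHR target, CYP2B6, the usual CAR target, and the neighbouring uptake transporters SLCO1B3 and SLCO1B1. The RefSeq table of assembly GRCh38.p14 held 33 of the 47 members, and the 250 bases before each start site were searched on both strands for GCGTG, the core bound by AHR with its partner ARNT, and for TATAAA, the TATA box. Capitals mark these matches, also where they lie on the opposite strand, and no match overlaps another in these windows.
CYP1A1, chr15:74725529-74725778, minus strand: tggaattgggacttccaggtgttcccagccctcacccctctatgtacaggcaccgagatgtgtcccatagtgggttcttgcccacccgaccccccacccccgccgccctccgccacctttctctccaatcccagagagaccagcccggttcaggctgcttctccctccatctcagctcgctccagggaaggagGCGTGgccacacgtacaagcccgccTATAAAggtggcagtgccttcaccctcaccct
CYP2B6, chr19:40991032-40991281, plus strand: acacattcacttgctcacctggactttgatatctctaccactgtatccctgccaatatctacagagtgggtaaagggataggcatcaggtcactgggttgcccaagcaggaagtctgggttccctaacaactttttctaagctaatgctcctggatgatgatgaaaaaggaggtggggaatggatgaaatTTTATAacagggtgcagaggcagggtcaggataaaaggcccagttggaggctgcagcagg
SLCO1B3, chr12:20810455-20810704, plus strand: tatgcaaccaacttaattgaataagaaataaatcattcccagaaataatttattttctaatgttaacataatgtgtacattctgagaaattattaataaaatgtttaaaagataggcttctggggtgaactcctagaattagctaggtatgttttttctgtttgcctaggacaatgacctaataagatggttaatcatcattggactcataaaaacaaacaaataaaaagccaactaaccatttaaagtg
SLCO1B1, chr12:21130944-21131193, plus strand: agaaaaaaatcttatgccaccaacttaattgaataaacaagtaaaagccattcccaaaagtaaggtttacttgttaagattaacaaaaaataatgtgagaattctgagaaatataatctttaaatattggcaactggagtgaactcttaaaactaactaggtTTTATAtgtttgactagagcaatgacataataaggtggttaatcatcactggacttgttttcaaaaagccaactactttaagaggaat

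In the CYP1A1 window GCGTG began 57 bases and TATAAA 32 bases before the start site. TATAAA lay on the opposite strand in CYP2B6, from 60 bases before the start site, and in SLCO1B1, from 88 bases before it. The SLCO1B3 window held neither motif. Of all 35116 upstream windows in the table, 32.2% held GCGTG and 10.7% TATAAA. Among the 33 members in the table, 5 held GCGTG (ABCB1, CES2, CYP1A1, CYP2J2 and UGT1A6) and 13 held TATAAA. A match is a description of letters, and binding was not measured.

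Between the lines, drug metabolism genes differed in both directions, and more were lower in HA22T. With siControl 36 members could be tested and 18 passed, 5 higher and 13 lower in HA22T. Over all genes tested in that comparison, 14.2% were called higher and 12.4% lower in HA22T. The median difference was -0.40 over the 36 members and 0.10 over the 17462 genes tested. With siGALNT1, on separate arrays, 21 of 35 members passed, 7 higher and 14 lower, against 11.6% called higher and 14.9% called lower of all genes. The median was -0.66 over the members and 0.07 over all 17262 genes. The calls of 17 members held in the same direction with either siRNA, 5 higher and 12 lower in HA22T. Among these, CYP27A1, UGT2B4 and SLCO1B3 entered both tests through the line where they were high. The share of all genes called in both comparisons is not given here, so this count is not set against one. By role, with siControl, 1 was higher and 3 lower of 10 xenobiotic P450s, 0 and 2 of 3 fatty acid P450s, 1 and 0 of 2 bile acid P450s, 0 and 1 of 4 receptors, 0 and 2 of 6 conjugating enzymes, 1 and 3 of 5 dehydrogenases and esterases, and 2 and 2 of 6 transporters.

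These counts carry a limit of the filter. CYP27A1, UGT2B4, SULT2A1, ADH4 and SLCO1B3 were well above background in only 1 of the lines with siControl, so they entered the test through the line where they were high and had to differ. Among the 25 members well above background on all 6 siControl arrays, 10 passed, 3 higher and 7 lower in HA22T. With siGALNT1, CYP27A1, UGT2B4 and SLCO1B3 entered through a single line. Among the 20 members well above background on all 6 siGALNT1 arrays, 12 passed, 4 higher and 8 lower. The share of all genes called under this stricter filter is not given here, so these counts are not set against the shares above. The 6 HA22T arrays shared a slide with the first PLC5 array of each siRNA, and a different slide held the 4 remaining PLC5 arrays. On the shared slide alone, all 18 differences kept their sign with siControl and all 21 with siGALNT1. That fit holds 1 PLC5 array per comparison, which is assumed to vary like the arrays of the other groups, and under this assumption 15 passed with either siRNA.

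**Figure D1:**
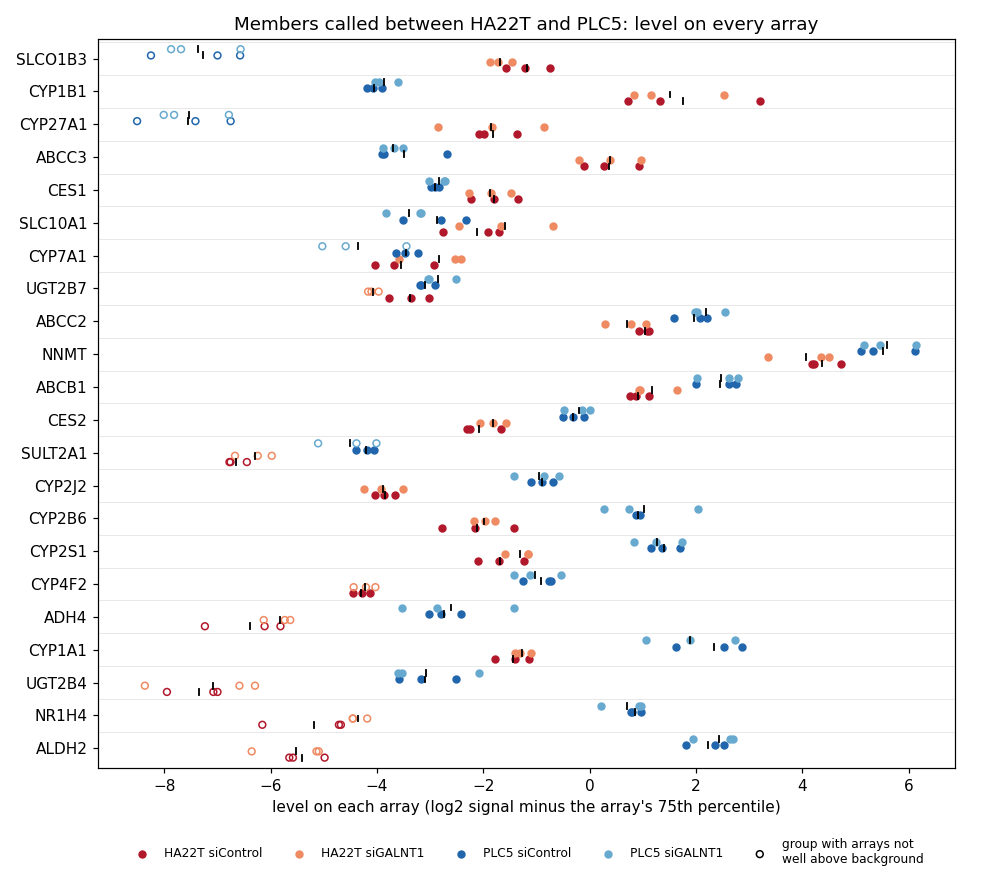
Level of each of the 22 members called between the lines with either siRNA, on every array (log2 signal minus the array's 75th percentile), coloured by group, with a tick at each group mean and open circles for groups in which some or all arrays were not well above background. HA22T and PLC5 arrays lie far apart for ALDH2 and NR1H4 at the bottom and for SLCO1B3 and CYP1B1 at the top, and the siControl and siGALNT1 points of a line overlap or lie near each other in these 4 genes.

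Among the xenobiotic P450s, the CYP1 family split. CYP1A1 and CYP1B1 both oxidise polycyclic aromatic compounds and are induced through AHR, yet CYP1A1 was lower and CYP1B1 higher in HA22T. CYP1A1 read -1.40, -1.15 and -1.78 on the HA22T arrays with siControl and -1.11, -1.32 and -1.41 with siGALNT1, and 1.62, 2.86 and 2.53 on the PLC5 arrays with siControl and 1.05, 2.74 and 1.88 with siGALNT1. Every PLC5 array lay above every HA22T array. The difference was -3.78 ± 0.43 (adjusted p = 7.39e-05) with siControl and -3.17 ± 0.43 (adjusted p = 0.000286) with siGALNT1, a 13.8-fold lower signal in HA22T with siControl. CYP1B1 read 3.21, 1.33 and 0.73 on the HA22T arrays with siControl and 2.52, 1.16 and 0.82 with siGALNT1, and -4.08, -4.18 and -3.91 on the PLC5 arrays with siControl and -3.97, -3.61 and -4.03 with siGALNT1. Here every HA22T array lay above every PLC5 array, and the HA22T arrays themselves were more spread than those of PLC5. The difference was 5.81 ± 0.58 (adjusted p = 2.95e-05) with siControl and 5.37 ± 0.58 (adjusted p = 5.6e-05) with siGALNT1, a 56.1-fold higher signal in HA22T with siControl. Without HA22T siControl array 1, the highest, it was 5.085. A second CYP1B1 probe gave 3.79 ± 0.56 (adjusted p = 0.000518) with siControl. CYP1A2, the neighbour of CYP1A1 on chromosome 15 that metabolises caffeine, was dim in both lines, with group means of -5.07 to -3.71 in HA22T and -4.83 to -4.71 in PLC5, and its difference of -0.24 had a 95% confidence interval of -1.99 to 1.496.

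AHR itself did not pass the test between the lines. AHR read 2.82, 3.14 and 3.38 on the HA22T arrays with siControl and 2.03, 2.83 and 2.90 with siGALNT1, and 3.51, 3.19 and 3.46 on the PLC5 arrays with siControl and 3.39, 3.58 and 3.21 with siGALNT1. The difference was -0.27 ± 0.29 (adjusted p = 0.564) with siControl and -0.80 ± 0.29 (adjusted p = 0.0661) with siGALNT1, and with siGALNT1 the groups did not overlap. A second AHR probe gave -0.48 ± 0.35 (adjusted p = 0.386) and -1.31 ± 0.35 (adjusted p = 0.0201), so the weaker probe passed with siGALNT1 where the brighter did not. Of other genes of this pathway, ARNT differed by -0.10 ± 0.23 (adjusted p = 0.815) with siControl, and TIPARP, another gene induced through AHR, was higher in HA22T by 1.70 ± 0.32 (adjusted p = 0.00267). Both were picked from the list of regulators after their values were seen.

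CYP2B6 and CYP2S1 were lower in HA22T as well. CYP2B6 oxidises cyclophosphamide and efavirenz and is the usual target gene of CAR. CYP2B6 read -2.78, -2.15 and -1.43 on the HA22T arrays with siControl and -1.97, -2.18 and -1.79 with siGALNT1, and 0.94 and 0.87 on the PLC5 arrays with siControl and 0.75, 2.04 and 0.27 with siGALNT1. A PLC5 siControl array had no value because its spot was flagged. The lines did not overlap, and the difference was -3.02 ± 0.52 (adjusted p = 0.00187) with siControl and -2.997 ± 0.46 (adjusted p = 0.001) with siGALNT1. CYP2S1 read -2.10, -1.23 and -1.71 on the HA22T arrays with siControl and -1.17, -1.59 and -1.17 with siGALNT1, and 1.70, 1.35 and 1.15 on the PLC5 arrays with siControl and 1.74, 1.24 and 0.84 with siGALNT1. CYP2S1, an extrahepatic family member, differed by -3.08 ± 0.32 (adjusted p = 3.45e-05) with siControl and -2.58 ± 0.32 (adjusted p = 0.000136) with siGALNT1. Its other probe, with values on 2 HA22T siControl arrays, differed by -5.23 ± 0.49 (adjusted p = 5.88e-05).

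The P450s that carry most of drug oxidation in adult liver gave no call between the lines. CYP3A4, the main drug-oxidising P450, differed by 0.04 with siControl (95% confidence interval -0.68 to 0.75). CYP2E1, which oxidises ethanol and paracetamol, differed by 0.42 (-0.37 to 1.22). CYP2D6, which metabolises many antidepressants and opioids, differed by -0.68 (-1.40 to 0.04), and its other probe by -0.98 (adjusted p = 0.0376). CYP3A5 differed by -0.79 (adjusted p = 0.11). CYP3A7, the fetal form, differed by -0.23 by its brighter probe, which had no value on 2 HA22T arrays, and by -2.52 (adjusted p = 0.00235) by its dimmer probe, well above background on 1 of 3 HA22T siControl arrays. CYP3A4, CYP3A5 and CYP3A7 lie close together on chromosome 7. They are close in sequence, as CYP2D6 is to its pseudogenes, so their probes may share targets. The same holds for the UGT2B, ADH1 and SLCO1B genes and for CES1 and its pseudogene. CYP2C8 was well above background on 1 of 12 arrays and CYP2C19 on 1 of 12, and neither was tested.

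Of the P450s that act on fatty acids, CYP2J2 and CYP4F2 were lower in HA22T and CYP4A11 was not called. CYP2J2 makes epoxides of arachidonic acid. CYP2J2 read -3.67, -3.86 and -4.04 on the HA22T arrays with siControl and -3.51, -3.92 and -4.24 with siGALNT1, and -0.69, -0.89 and -1.11 on the PLC5 arrays with siControl and -0.87, -0.58 and -1.43 with siGALNT1. The lines did not overlap, and the difference was -2.96 ± 0.29 (adjusted p = 2.55e-05) with siControl and -2.93 ± 0.29 (adjusted p = 2.86e-05) with siGALNT1. CYP4F2 hydroxylates arachidonic acid and vitamin K. CYP4F2 read -4.14, -4.46 and -4.28 on the HA22T arrays with siControl and -4.03, -4.44 and -4.21 with siGALNT1, and -1.26, -0.72 and -0.76 on the PLC5 arrays with siControl and -1.42, -0.53 and -1.12 with siGALNT1. It differed by -3.38 ± 0.28 (adjusted p = 7.5e-06) with siControl and -3.20 ± 0.28 (adjusted p = 1.23e-05) with siGALNT1, again without overlap. CYP4A11, a fatty acid omega-hydroxylase, differed by 0.11 with siControl (95% confidence interval -0.48 to 0.69).

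The bile acid P450s did not move together. CYP27A1, the mitochondrial sterol 27-hydroxylase of the acidic pathway, was detected only in HA22T. CYP27A1 read -1.99, -2.07 and -1.37 on the HA22T arrays with siControl and -2.85, -0.85 and -1.84 with siGALNT1, and -6.75, -7.41 and -8.51 on the PLC5 arrays with siControl and -6.79, -7.82 and -8.01 with siGALNT1. It was well above background on all 6 HA22T arrays and on none of the 6 PLC5 arrays, so the fold is a bound. CYP27A1 was at least 12.7-fold higher in HA22T with siControl and at least 13.2-fold with siGALNT1. A bound here sets the brighter group's mean against the lowest signal that counted as above background on each array of the dimmer group, or the dimmer signal itself where that was higher. No p-value is given beside a bound, because such a gene entered the test through the line where it was high. CYP7A1, the rate-limiting enzyme of the classical pathway, showed no call with siControl. CYP7A1 read -3.68, -2.93 and -4.04 on the HA22T arrays with siControl and -2.52, -2.42 and -3.58 with siGALNT1, and -3.46, -3.24 and -3.64 on the PLC5 arrays with siControl and -5.03, -4.59 and -3.45 with siGALNT1. Its difference was -0.10 ± 0.46 (adjusted p = 0.905) with siControl and 1.51 ± 0.46 (adjusted p = 0.0344) with siGALNT1, so it passed only with siGALNT1, where the groups overlapped. That call was lost without HA22T siGALNT1 array 1 or 2 or without PLC5 siGALNT1 array 1 or 2, at 1.18 to 1.40. CYP8B1, which sets the cholic acid share, was well above background on 0 of 12 arrays.

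ALDH2 had the largest fitted difference of the 36 members tested with siControl, among which those detected in a single line have only bounds. It is the mitochondrial enzyme that clears acetaldehyde. ALDH2 read -4.99, -5.65 and -5.58 on the HA22T arrays with siControl and -5.14, -5.09 and -6.36 with siGALNT1, and 2.52, 1.80 and 2.35 on the PLC5 arrays with siControl and 2.69, 2.63 and 1.95 with siGALNT1. The signal was near background in HA22T, where 2 of 3 siControl arrays and 1 of 3 siGALNT1 arrays were well above background, and was above background on all 6 PLC5 arrays. The difference was -7.63 ± 0.39 (adjusted p = 2.63e-07) with siControl and -7.96 ± 0.39 (adjusted p = 2.07e-07) with siGALNT1. Its size rests on HA22T signals near background, and after normexp background correction it was -6.04 with siControl. ADH4, an alcohol dehydrogenase that also oxidises retinol, ran the same way. ADH4 read -6.11, -7.24 and -5.82 on the HA22T arrays with siControl and -5.73, -6.13 and -5.63 with siGALNT1, and -3.02, -2.43 and -2.80 on the PLC5 arrays with siControl and -1.42, -2.87 and -3.54 with siGALNT1. No HA22T siControl array and 1 HA22T siGALNT1 array was well above background. ADH4 was at least 6.97-fold lower in HA22T with siControl and differed by -3.22 ± 0.51 (adjusted p = 0.000856) with siGALNT1. Normexp background correction brought the fitted differences to -1.79 with siControl and -1.59 with siGALNT1. Leaving out PLC5 siGALNT1 array 1 brought the siGALNT1 difference to -2.63. Its neighbours on chromosome 4 were dim: ADH1A was well above background on 3 of 6 HA22T and 0 of 6 PLC5 arrays, and ADH1B on 0 of 12. ALDH3A1, an aldehyde dehydrogenase induced by xenobiotics, differed by 0.42 ± 0.28 (adjusted p = 0.337) with siControl.

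The carboxylesterases, which cleave ester prodrugs, ran in opposite directions. CES2, which activates irinotecan, was lower in HA22T. CES2 read -1.66, -2.25 and -2.30 on the HA22T arrays with siControl and -1.58, -1.81 and -2.06 with siGALNT1, and -0.10, -0.31 and -0.51 on the PLC5 arrays with siControl and 0.01, -0.15 and -0.48 with siGALNT1. The lines did not overlap, and the difference was -1.77 ± 0.27 (adjusted p = 0.000588) with siControl and -1.61 ± 0.27 (adjusted p = 0.00116) with siGALNT1. CES1 was higher in HA22T. CES1 read -2.23, -1.80 and -1.34 on the HA22T arrays with siControl and -2.27, -1.86 and -1.47 with siGALNT1, and -2.84, -2.90 and -2.98 on the PLC5 arrays with siControl and -2.74, -3.02 and -2.73 with siGALNT1. Its difference was 1.12 ± 0.29 (adjusted p = 0.0165) with siControl and 0.96 ± 0.29 (adjusted p = 0.0336) with siGALNT1. The other counted CES1 probes gave 2.70 (adjusted p = 0.000761) and 1.69 (adjusted p = 0.0247) with siControl, and a 4th was not well above background on any array. The CES1 call was lost with the slide as a block (adjusted p = 0.0742 with siControl), at a difference of 1.04. It was also lost with siControl without HA22T or PLC5 siControl array 3 (0.89 and 1.08), and with siGALNT1 without HA22T siGALNT1 array 2 or 3, any PLC5 siGALNT1 array or PLC5 siControl array 3 (0.764 to 1.014).

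Among the conjugating enzymes, UGT2B4 and SULT2A1 were detected only in PLC5. UGT2B4 glucuronidates bile acids. UGT2B4 read -7.95, -6.999 and -7.08 on the HA22T arrays with siControl and -8.37, -6.29 and -6.59 with siGALNT1, and -3.59, -2.51 and -3.18 on the PLC5 arrays with siControl and -3.61, -2.09 and -3.52 with siGALNT1. No HA22T array and every PLC5 array was well above background. UGT2B4 was at least 5.5-fold lower in HA22T with siControl and at least 3.47-fold lower with siGALNT1. SULT2A1 sulphates bile acids and DHEA. SULT2A1 read -6.45, -6.77 and -6.75 on the HA22T arrays with siControl and -6.24, -5.98 and -6.67 with siGALNT1, and -4.06, -4.19 and -4.40 on the PLC5 arrays with siControl and -4.39, -4.01 and -5.11 with siGALNT1. It was well above background on 0 of 6 HA22T and 5 of 6 PLC5 arrays and was at least 2.52-fold lower in HA22T with siControl. After normexp background correction its fitted difference shrank to -0.81 and no longer passed. With siGALNT1 it was not counted.

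UGT1A6, UGT2B7, UGT2B15 and NNMT gave no call with siControl. UGT1A6 read 2.46, 2.96 and 3.40 on the HA22T arrays with siControl and 1.70, 2.95 and 3.25 with siGALNT1, and 3.54, 3.26 and 3.28 on the PLC5 arrays with siControl and 3.68, 4.19 and 2.96 with siGALNT1. UGT1A6, which glucuronidates phenols such as paracetamol, differed by -0.42 ± 0.44 (adjusted p = 0.558) with siControl. UGT1A enzymes share their last exons, so this probe may read several of them. NNMT read 4.19, 4.22 and 4.72 on the HA22T arrays with siControl and 3.35, 4.35 and 4.50 with siGALNT1, and 6.12, 5.11 and 5.33 on the PLC5 arrays with siControl and 6.14, 5.46 and 5.17 with siGALNT1. NNMT methylates nicotinamide. All HA22T arrays lay below all PLC5 arrays, and the difference was -1.15 ± 0.40 (adjusted p = 0.0616) with siControl and -1.52 ± 0.40 (adjusted p = 0.0171) with siGALNT1, so it passed only with siGALNT1, and not there without HA22T siGALNT1 array 1 (-1.17) or PLC5 siGALNT1 array 1 (-1.25). UGT2B7, which glucuronidates morphine, likewise differed by -0.29 ± 0.26 (adjusted p = 0.491) with siControl and -1.22 ± 0.26 (adjusted p = 0.00593) with siGALNT1. UGT2B15 differed by 0.28 with siControl (95% confidence interval -0.45 to 1.00).

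Uptake and efflux carriers differed in both directions. SLCO1B3 (OATP1B3), a liver uptake carrier for bile acids, statins and other drugs, was detected only in HA22T. SLCO1B3 read -0.74, -1.21 and -1.57 on the HA22T arrays with siControl and -1.46, -1.87 and -1.72 with siGALNT1, and -6.57, -6.999 and -8.25 on the PLC5 arrays with siControl and -6.57, -7.87 and -7.68 with siGALNT1. It was well above background on all 6 HA22T and none of 6 PLC5 arrays. SLCO1B3 was at least 19.8-fold higher in HA22T with siControl and at least 14.9-fold with siGALNT1. SLCO1B1 (OATP1B1), which lies close to it on chromosome 12 and has a similar substrate range, differed by -0.16 with siControl (95% confidence interval -1.07 to 0.75). SLCO1B1 was well above background on all 6 siControl arrays, with group means of -1.21 ± 0.15 in HA22T and -1.05 ± 0.57 in PLC5 (SD, n = 3). The difference between the genes was not tested. SLC10A1 read -2.77, -1.92 and -1.70 on the HA22T arrays with siControl and -1.66, -2.46 and -0.69 with siGALNT1, and -2.32, -2.80 and -3.51 on the PLC5 arrays with siControl and -3.83, -3.20 and -3.17 with siGALNT1. SLC10A1 (NTCP), the sodium-dependent bile acid importer, differed by 0.75 ± 0.48 (adjusted p = 0.313) with siControl and 1.80 ± 0.48 (adjusted p = 0.0186) with siGALNT1, and so was called higher in HA22T only with siGALNT1, and not there without HA22T siGALNT1 array 3 (1.34) or PLC5 siGALNT1 array 1 (1.58). With the slide as a block it did not pass either (1.73, adjusted p = 0.07).

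ABCC3 (MRP3), which exports glucuronides across the blood-facing membrane, was higher in HA22T. ABCC3 read -0.11, 0.26 and 0.92 on the HA22T arrays with siControl and -0.20, 0.38 and 0.97 with siGALNT1, and -2.69, -3.90 and -3.86 on the PLC5 arrays with siControl and -3.67, -3.89 and -3.51 with siGALNT1. The lines did not overlap, and the difference was 3.84 ± 0.41 (adjusted p = 4.83e-05) with siControl and 4.07 ± 0.41 (adjusted p = 3.31e-05) with siGALNT1. Its other probe was well above background on 1 of 3 PLC5 siControl arrays and gave 5.89 ± 0.58 (adjusted p = 2.53e-05) with siControl. ABCB1 and ABCC2, exporters of the bile-facing membrane, ran the other way. ABCB1 (MDR1, P-glycoprotein), which pumps out many cancer drugs, was lower in HA22T. ABCB1 read 0.76, 0.87 and 1.12 on the HA22T arrays with siControl and 1.65, 0.95 and 0.94 with siGALNT1, and 2.62, 2.76 and 1.99 on the PLC5 arrays with siControl and 2.62, 2.79 and 2.02 with siGALNT1. Its difference was -1.54 ± 0.32 (adjusted p = 0.00445) with siControl and -1.30 ± 0.32 (adjusted p = 0.0121) with siGALNT1, and its other probe gave -3.20 with siControl (adjusted p = 1.38e-05). With siGALNT1 the call was lost without PLC5 siGALNT1 array 2 (-1.15). ABCC2 read 1.11, 0.93 and 1.07 on the HA22T arrays with siControl and 1.05, 0.29 and 0.78 with siGALNT1, and 2.08, 1.59 and 2.20 on the PLC5 arrays with siControl and 2.55, 2.02 and 1.97 with siGALNT1. ABCC2 (MRP2), which exports glucuronides into bile, differed by -0.92 ± 0.28 (adjusted p = 0.039) with siControl and -1.47 ± 0.28 (adjusted p = 0.00314) with siGALNT1. With siControl this call was lost when any 1 of the 3 HA22T siControl arrays, HA22T siGALNT1 array 3 or PLC5 siControl array 1 or 3 was left out, at differences of -0.95 to -0.79. ABCB4, the phospholipid carrier next to ABCB1 on chromosome 7, was well above background on 2 of 12 arrays and ABCB11 (BSEP), the bile salt export pump, on 1 array, and neither was tested.

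Of the receptors, NR1H4 (FXR), which senses bile acids and represses CYP7A1 through NR0B2, differed between the lines. NR1H4 read -6.16, -4.72 and -4.68 on the HA22T arrays with siControl and -4.18, -4.46 and -4.45 with siGALNT1, and 0.96, 0.77 and 0.80 on the PLC5 arrays with siControl and 0.97, 0.92 and 0.20 with siGALNT1. In HA22T 1 of 3 arrays was well above background with either siRNA, and in PLC5 all 6 were. The difference was -6.03 ± 0.38 (adjusted p = 1.05e-06) with siControl and -5.06 ± 0.38 (adjusted p = 4.23e-06) with siGALNT1. Its size rests on HA22T signals mostly not above background, and after normexp background correction it was -4.56 with siControl. NR1I3 read -3.90, -4.01 and -3.29 on the HA22T arrays with siControl and -3.22, -4.16 and -3.70 with siGALNT1, and -2.72, -2.61 and -2.97 on the PLC5 arrays with siControl and -2.57, -3.12 and -3.41 with siGALNT1. NR1I3 (CAR) differed by -0.97 ± 0.33 (adjusted p = 0.0563) with siControl and -0.66 ± 0.33 (adjusted p = 0.173) with siGALNT1 and did not pass, while its dimmer probe gave -1.16 ± 0.30 (adjusted p = 0.0166) with siControl. NR1I2 read -6.77, -7.88 and -6.41 on the HA22T arrays with siControl and -7.20, -6.12 and -6.36 with siGALNT1, and -6.06, -6.77 and -7.08 on the PLC5 arrays with siControl and -5.82, -7.37 and -7.50 with siGALNT1. NR1I2 (PXR) is the main sensor of drugs that induce CYP3A4. At least 1 of its repeated spots was well above background on 3 of 6 HA22T and 4 of 6 PLC5 arrays. Its level, a mean over spots, lay on every array below the lowest signal that counted as above background. Its difference of -0.38 (95% confidence interval -1.55 to 0.78) therefore rests on signals near background in both lines.

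**Figure D2:**
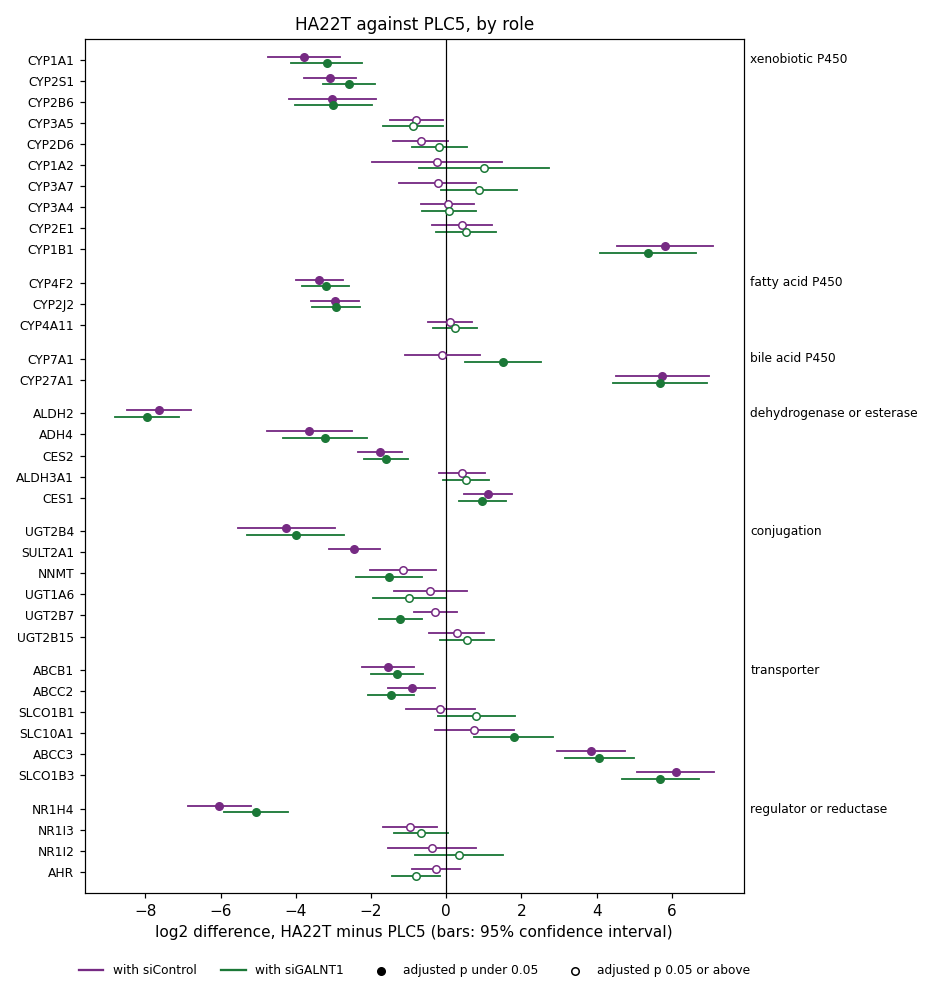
Difference between the lines (log2, HA22T minus PLC5) for each tested member, grouped by role, with siControl (purple) and siGALNT1 (green), bars for the 95% confidence interval and filled points for an adjusted p under 0.05. Both siRNAs place ALDH2, NR1H4 and UGT2B4 far to the left and SLCO1B3, CYP1B1 and CYP27A1 far to the right, with fitted values in place of bounds for members not above background in a line.

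Several genes had more than 1 counted probe, which gave a check within the gene. With siControl, 12 members had more than 1 counted probe, and in 0 of them did the probes point in opposite directions. The size differed more. CYP1B1 gave 5.81 and 3.79, CYP2S1 -3.08 and -5.23, ABCC3 3.84 and 5.89, and ABCB1 -1.54 and -3.20. For CYP3A7, CYP2D6 and NR1I3 the dimmer probe passed and the brighter did not.

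**Figure D3:**
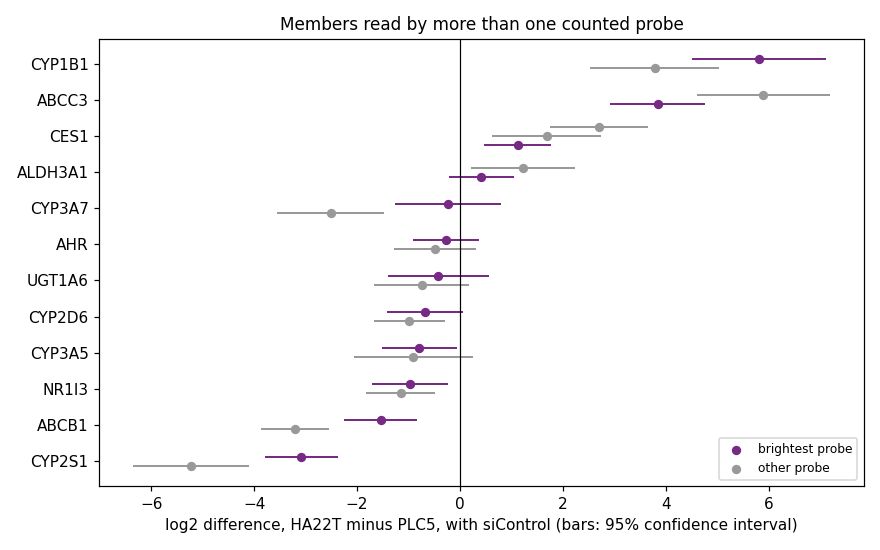
Difference between the lines with siControl (log2, HA22T minus PLC5) for the 12 members with more than 1 counted probe, with 95% confidence intervals, the brightest probe in purple and others in grey. The probes of a gene lie on the same side of 0, and those of CYP3A7, CYP2S1, ABCC3 and CYP1B1 differ most in size.

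Wider lists of the same pathways were counted in the same way. Of 134 genes listed outside the members, only some could be tested. With siControl 13 of the listed genes tested were called higher in HA22T, 35 lower and 57 were not called. Their median difference was -0.42. Of all genes tested, 14.2% were called higher and 12.4% lower. Those named below with a bound were detected in a single line, entered the test through it and had to differ. With siGALNT1 the counts were 9 and 38 of 104 tested, against 11.6% called higher and 14.9% called lower of all genes. The lists that follow are given with siControl. Of 19 conjugating enzymes tested, 1 was higher and 9 were lower. UGT2A3 was at least 13.2-fold, SULT1C2 at least 16.8-fold and NAT2 at least 7.11-fold lower in HA22T. Of 28 oxidation, reduction and hydrolysis enzymes, 6 were higher and 8 lower. ALDH1A1, a retinal dehydrogenase, differed by -7.07 ± 0.29 (adjusted p = 7.32e-08) and the lactonase PON3 by -5.79 ± 0.42 (adjusted p = 2.76e-06), and the monoamine oxidase MAOB was at least 9.79-fold lower.

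Of 21 other P450s, 2 were higher and 6 lower. CYP4F22 was at least 46-fold lower, CYP4F3 differed by -4.50 ± 0.49 (adjusted p = 4.99e-05) and CYP20A1 by -3.83 ± 0.58 (adjusted p = 0.00294). CYP20A1 had values on 2 HA22T arrays and 1 PLC5 array, which is assumed to vary like the other groups. Of 21 other transporters, 2 were higher and 6 lower. SLCO3A1 was at least 11.7-fold higher in HA22T, and SLC51B, a subunit of the bile acid exporter of the blood-facing membrane, and SLCO2B1 differed by -4.98 ± 0.36 (adjusted p = 2.75e-06) and -4.75 ± 0.48 (adjusted p = 3.28e-05). Of 16 regulators, 2 were higher and 6 lower. KLB, the co-receptor for FGF19, was at least 35.6-fold lower, HNF4A differed by -3.24 ± 0.43 (adjusted p = 0.000211) and NR0B2 by -2.42 ± 0.32 (adjusted p = 0.00022).

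GALNT1 siRNA was followed by no called change in the members in either line. In HA22T 33 members were tested and 0 passed (0% of 17017 genes tested passed). In PLC5 34 were tested and 0 passed (0% of 17376 genes). The brighter probe of GALNT1, the targeted gene, did not pass in either line, so a lack of calls does not show a lack of change. The median difference, siGALNT1 minus siControl, was 0.06 over the members and -0.10 over all genes in HA22T, and -0.03 and 0.03 in PLC5. By the study's looser criterion of 1.5-fold and an unadjusted p under 0.05, 1 member passed in HA22T, where 2.53% of all genes did, and 0 in PLC5, where 0.76% did. At an unadjusted p under 0.05 alone the counts were 1 and 0 members, and 452 and 138 of all genes.

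That member was UGT2B7, which was well above background on 2 of 3 HA22T siGALNT1 arrays. Its unadjusted p in HA22T was no longer under 0.05 in 5 of 27 other settings, normexp background correction among them. Over the 27 settings its difference in HA22T ran from -0.89 to -0.37. UGT2B7 read -3.03, -3.77 and -3.36 on the HA22T arrays with siControl and -3.97, -4.17 and -4.10 with siGALNT1, and -3.17, -3.20 and -2.91 on the PLC5 arrays with siControl and -3.03, -2.52 and -3.03 with siGALNT1. In HA22T every siGALNT1 array lay below every siControl array, and the difference was -0.70 ± 0.26 (adjusted p = 1). In PLC5 it was 0.23 ± 0.26 (adjusted p = 1), with overlap.

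The intervals, from the fit of 4 groups without pairing, say what the arrays could exclude. In HA22T differences ran from -0.70 (UGT2B7) to 1.37 (CYP1A2), and in 15 of 33 members the 95% confidence interval lay within 1 log2 unit of 0. In PLC5 they ran from -0.91 (CYP7A1) to 0.25 (UGT1A6), and the interval lay within 1 unit in 20 of 34. CYP3A4 differed by 0.06 (-0.66 to 0.77) in HA22T and 0.02 (-0.70 to 0.73) in PLC5. ALDH2 differed by 0.20 (-0.65 to 1.05) in PLC5, where it is expressed, and SLCO1B3 by -0.50 (-1.52 to 0.51) in HA22T. CYP1A1 differed by 0.16 (-0.78 to 1.11) in HA22T and -0.45 (-1.39 to 0.50) in PLC5, and AHR by -0.53 (-1.16 to 0.10) and 0.01 (-0.62 to 0.64).

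The siRNA difference was also compared between the lines as an interaction. Of 37 members tested 0 passed (0% of 17952 genes), and 2 had an unadjusted limma p under 0.05 (338 of all genes). CYP7A1 was 0.71 in HA22T and -0.91 in PLC5, an interaction of 1.62 ± 0.65 (adjusted p = 0.988). For UGT2B7 the interaction was -0.93 ± 0.37 (adjusted p = 0.988). The calls of CYP7A1, UGT2B7, NNMT and SLC10A1 between the lines with siGALNT1 alone are therefore not shown to depend on the siRNA. Of the wider lists 96 genes were tested for the siRNA difference in HA22T. Of these 0 were called and 6 had an unadjusted limma p under 0.05, where 452 of all 17017 genes did. In PLC5 as many listed genes were tested as between the lines with siControl. There 0 were called and 0 had such a p, where 138 of all 17376 genes did. Whether these shares differ from those of all genes was not tested.

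**Figure D4:**
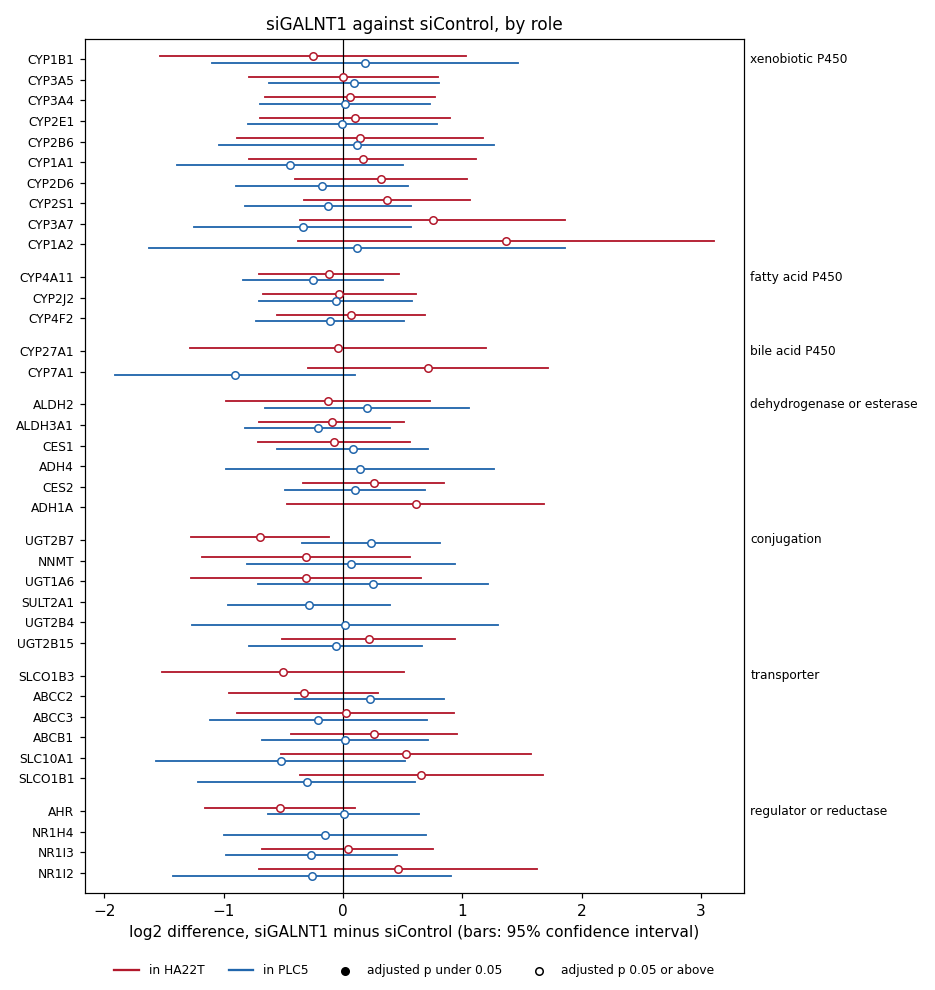
Difference between siGALNT1 and siControl (log2) for each tested member, grouped by role, in HA22T (red) and PLC5 (blue), with bars for the 95% confidence interval. All points are open, since no adjusted p was under 0.05, and of the HA22T and PLC5 intervals drawn, that of UGT2B7 in HA22T lies apart from 0.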

How the data were processed

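RNA of HA22T and PLC5 cells was measured on 12 one-colour arrays, 3 per line and siRNA. The intensity values that the authors deposited came from Agilent Feature Extraction 10.5.1.1, per the file headers, as processed signals with background already subtracted, beside flags for each spot. The deposited log2 table holds the same arrays after scaling by the authors and served as an alternative. Every column of values belonged to a sample of the series.

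Here log2 of the processed signal was taken relative to each array's 75th percentile over non-control spots. Spots flagged as non-uniform outliers were dropped, and repeated spots were averaged per probe. A probe counted as well above background on an array when any of its kept spots did. Probes were named by matching RefSeq transcripts, without versions, to a table of assembly GRCh38.p14, which named 28170 of 50599 probes. The 4 groups were fitted together with limma 3.58.1 (lmFit, eBayes) in R 4.3.3, and p-values were adjusted by Benjamini-Hochberg over all counted probes. The study's criterion of 1.5-fold and an unadjusted p under 0.05 was applied to the same fit. The number of arrays limits the precision. The fit was tested on simulated data for the lines with siControl. It recovered 6% of log2 changes of 1, 52% of changes of 2, 84% of changes of 3 and 100% of changes of 5. Of 128 calls among 32470 probes in that simulation, 7 were false. In the data 8380 of 38072 probes were called with siControl, so the adjustment was more lenient there than in the simulation. The recovery therefore does not give the sensitivity of the line comparison.

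The members, the wider lists and the marker lists were chosen with earlier results of these data known. Values on every array were given for members called between the lines with siControl, members past the study's criterion, the 5 strongest signals of each line and the receptors, with the 3 largest called differences of each wider list. The values of CYP7A1, UGT2B7, NNMT and SLC10A1, called only with siGALNT1, and of genes said to be picked were added after the results were seen.

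Same-numbered siControl and siGALNT1 arrays deviated together in HA22T (r = 0.551, 0.403 and 0.431 over probes), so their numbers were taken to pair them, from the values and not from the labels. In PLC5 the correlations were 0.706, -0.023 and 0.164, and the numbers were not taken to pair the arrays. The differences, SEs, p-values and intervals in the results come from the fit of 4 groups without pairing. Pairing entered only through the replicate block, as an alternative.

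Alternatives were other scalings, background correction, filters, flags, priors, blocks for slide and replicate number, fewer arrays, the methods' t-test (Student's) and the mean over a gene's probes. Normexp used the median spot signal.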

Additional observations from a re-analysis of the deposited data

How the results depend on the processing

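Between the lines, 39 differences were called with siControl or siGALNT1, and each was scored in up to 28 other settings. None reversed (0), and 25 stayed past the threshold in all the settings scored for them. A member that missed the filter of signal well above background on all 6 arrays was not scored in that setting, so its loss there is not counted. Of 18 members called with siControl and 21 with siGALNT1, 10 and 12 were called when signal well above background was required on all 6 arrays, 13 were called with siGALNT1 by the methods' t-test, and 16 to 20 and 17 to 21 when each array was left out in turn. With the replicate block 18 and 22 members were called between the lines, and with a prior from counted probes, chosen after seeing the data, 20 and 22. Of the settings scored, ABCC2 with siControl lost its call in 11, and CES1 in 5 with siControl and 11 with siGALNT1. With siGALNT1 CYP7A1 lost its call in 7, SLC10A1 and NNMT in 5 each and ABCB1 in 4. The causes were not tested. Normexp background correction shrank members near background, SULT2A1 to -0.81 (no longer called), UGT2B4 to -1.71, ADH4 to -1.79, ALDH2 to -6.04, NR1H4 to -4.56, CYP27A1 to 3.12 and SLCO1B3 to 3.40 with siControl, and UGT2B7 to -0.69 (no longer called) with siGALNT1. Median scaling moved the median of all probes with siControl by 0.11, and quantile normalization moved it with siGALNT1 by 0.11 and the share higher in HA22T among called probes from 42.8% to 54.8%.

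For siGALNT1 against siControl no member was called (0) in either line under any setting, the replicate block included. By the study's criterion the 1 member in HA22T became 0 under that stricter filter, 2 with the replicate block and 0 to 2 when each array was left out. The 0 members in PLC5 became 1 without a filter on dim probes, 1 with the replicate block and 0 to 1 when each array was left out. The pairing changed no adjusted call in the siRNA comparisons. Signal near background limits the size of such differences. Bounds are given where no array of a group was well above background, and fitted differences where some arrays were.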

Other observations

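Markers of other cell types differed between the lines in places, with siControl and by limma with adjustment over all probes. Of 5 mesenchymal and stellate markers tested, 2 were higher and 1 lower in HA22T. VIM, the intermediate filament vimentin, differed by 5.54 ± 0.43 (adjusted p = 4.55e-06), the transcriptional repressor ZEB1 by 2.01 ± 0.30 (adjusted p = 0.000526) and fibronectin, FN1, by -3.60 ± 0.25 (adjusted p = 2.15e-06). Of 3 fetal liver markers, GPC3 differed by -4.59 ± 0.22 (adjusted p = 1.81e-07) and AFP and DLK1 did not pass. Of 2 biliary markers tested SOX9 differed by -3.22 ± 0.27 (adjusted p = 7.81e-06), and of 5 epithelial markers the tight junction protein CLDN1 differed by -2.30 ± 0.32 (adjusted p = 0.000321). Of 6 leukocyte and endothelial markers, CD14 differed by 3.86 ± 0.75 (adjusted p = 0.00303) and PECAM1 by -5.41 ± 0.32 (adjusted p = 6.32e-07).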
